A study of Caenorhabditis elegans with 2 samples.

Results

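The regions described here are 5861 autosomal one-direction promoter regions from chromatin immunoprecipitation sequencing (ChIP-seq) of LSY-27 in Caenorhabditis elegans. They were taken from the relaxed list of 30000 regions that the authors called on both replicates pooled, in genome build ce11. A region was a member when it lay on chromosomes I to V, its summit was over 500 bp from any tRNA, snRNA, snoRNA, miRNA or piRNA gene, and the summit fell in a window that reached 1000 bp upstream and 200 bp downstream around the annotated 5′ ends of protein-coding genes of 1 strand only. Members made up 19.5% of the whole list and 23.2% of its 25250 autosomal regions. The other autosomal classes were 1227 head-to-head promoter regions, whose summits lay in the windows of genes on both strands, 16214 regions at no protein-coding start and 1948 regions near a short RNA gene.

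There was 1 group, made of biological replicates 2 and 3 of young adult hermaphrodites of strain OP401, a transgenic line that stably carries LSY-27 with a GFP-FLAG tag at its C-terminus. The sample descriptions state that precipitation was through GFP, while the antibody field of the labels names lsy-27. The sources used here do not give the promoter that drives the tagged gene or the read depth, and the control was not analysed here. Whole animals were used, so a region bound weakly in many cells and one bound strongly in few cells cannot be told apart, and with a single group all comparisons are between regions or between the replicates.

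LSY-27 is a C2H2 zinc finger protein known from the ASE taste neurons, where it is needed for the left cell of the pair to differ from the right. In the compact genome of C. elegans many genes lie close behind a neighbour read in the same direction, some of them in operons, and others share an upstream region with a gene read the other way. Most mRNAs receive a spliced leader in place of their original 5′ end, so an annotated 5′ end can lie downstream of the place where transcription begins. Regulatory sequence is therefore often found some way upstream of the annotated start.

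The sequences below span 50 bp on each side of the summit of 8 of the 10 strongest members found in both replicates, and they are shown because the strongest members differed most from their surroundings in base composition. They were read from the RefSeq assembly WBcel235 (ce11) on the strand of the gene, 5′ to 3′, and capitals mark every CG dinucleotide, a choice made after the values were seen.
rpl-35 (chrIII:7854630-7854730, + strand): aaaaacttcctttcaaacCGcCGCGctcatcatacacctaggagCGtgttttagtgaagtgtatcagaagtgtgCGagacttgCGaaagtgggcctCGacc
chmp-7 (chrII:9054767-9054867, + strand): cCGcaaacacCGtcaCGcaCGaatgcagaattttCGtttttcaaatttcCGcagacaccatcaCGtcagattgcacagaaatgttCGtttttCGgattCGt
usp-4 (chrIV:6756611-6756711, + strand): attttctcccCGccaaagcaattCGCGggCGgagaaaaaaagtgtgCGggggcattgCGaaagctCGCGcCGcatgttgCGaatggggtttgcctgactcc
ubc-9 (chrIV:4650764-4650864, + strand): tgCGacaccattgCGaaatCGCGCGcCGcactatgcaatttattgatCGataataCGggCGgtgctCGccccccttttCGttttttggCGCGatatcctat
swsn-3 (chrIII:2768791-2768891, - strand): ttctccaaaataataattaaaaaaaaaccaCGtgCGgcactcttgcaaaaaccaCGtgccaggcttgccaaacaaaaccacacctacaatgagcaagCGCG
cdc-48.1 (chrII:10563538-10563638, - strand): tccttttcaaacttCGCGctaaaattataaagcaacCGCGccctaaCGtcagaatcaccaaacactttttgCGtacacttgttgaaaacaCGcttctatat
rps-28 (chrIV:1659231-1659331, + strand): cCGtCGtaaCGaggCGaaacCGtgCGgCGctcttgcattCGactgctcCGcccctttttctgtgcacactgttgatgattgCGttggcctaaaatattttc
scc-2 (chrII:255305-255405, - strand): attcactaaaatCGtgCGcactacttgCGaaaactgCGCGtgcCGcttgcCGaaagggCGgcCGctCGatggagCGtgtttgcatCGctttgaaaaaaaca

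These 8 genes encode ribosomal proteins (rpl-35 and rps-28), a CHMP7-type membrane remodelling factor (chmp-7), a ubiquitin-specific protease (usp-4), the SUMO-conjugating enzyme (ubc-9), a SWI/SNF chromatin remodelling subunit (swsn-3), a p97-type AAA ATPase (cdc-48.1) and the cohesin loader (scc-2). CG dinucleotides numbered 13 at ubc-9, 12 at scc-2, 10 each at chmp-7, usp-4 and rps-28, 7 each at rpl-35 and cdc-48.1 and 5 at swsn-3. The mean over windows of the same size in all autosomal promoters, centred at -316 bp from the 5′ end, was 3.11. All 8 windows were above that mean. Of the 10 strongest, the members at kin-14 and col-63 are on chromosome I, and their sequence is not shown. Their windows held 1 CG dinucleotide at kin-14, below the mean, and 10 at col-63.

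The signal value of a region, in the deposited lists, is the authors' score, of a scale that the sources used here do not state, and it was used only to rank and describe. Members had a median signal of 5.05, with quartiles of 3.84 and 7.06 and a range from 2.98 to 41.2. Head-to-head promoter regions had a median of 6.70 (quartiles 4.47 and 10.6), regions near short RNA genes 5.40 (3.94 and 8.93), and regions at no protein-coding start 4.59 (3.67 and 6.14). One-direction promoter regions of the X chromosome, 976 in number, had a median of 4.86 (3.74 and 6.84). Members thus lay between the regions without a start and the head-to-head regions, and the quartiles of all of these classes overlapped. All members were 316 bp wide, so signal did not vary with width. Members were not all separate places, since 690 of them (11.8%) overlapped another region of the pooled list.

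**Figure D1:**
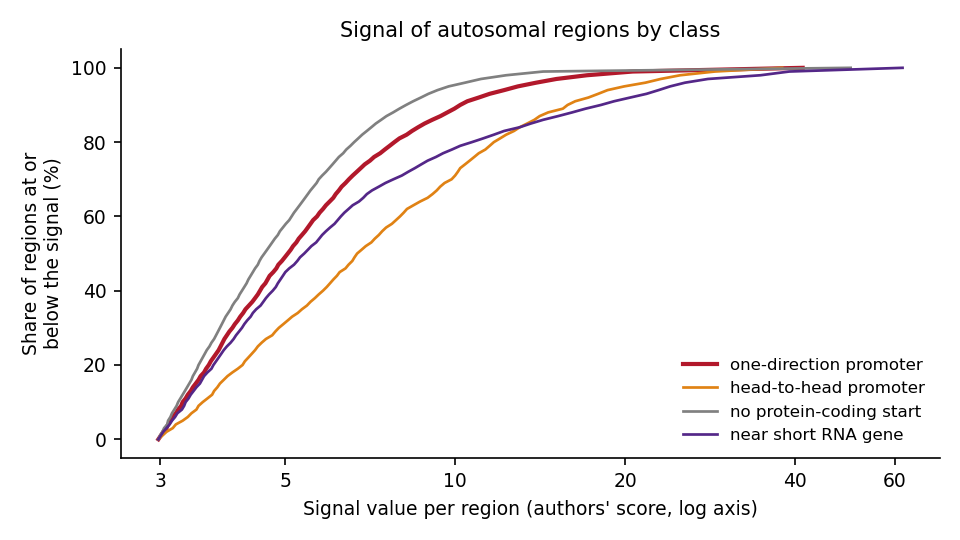
The cumulative share of regions (percent, vertical axis) is drawn against the authors' signal value (log axis) for 4 classes of autosomal regions. The curve of one-direction promoter regions lies between that of regions without a protein-coding start and that of head-to-head promoter regions, with medians of 5.05, 4.59 and 6.70.

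The thresholded list, which the authors made from regions that were reproducible between the replicates, held 342 regions. It overlapped 50 members, or 0.853% of them (exact Clopper-Pearson 95% interval 0.634 to 1.12%, which like all such intervals here treats regions as independent and covers counting error only), against 1.24% of the whole pooled list and 1.06% of all autosomal regions. The share was 4.07% (3.04 to 5.34%) in head-to-head regions, 7.39% (6.27 to 8.65%) near short RNA genes and 0.142% (0.0899 to 0.213%) at no protein-coding start. The share of members was thus near that of all autosomal regions, and below that of head-to-head regions. Of the 50 members, 48 were identical to a thresholded region and had signals from 22.2 to 41.2. No member with a signal above the weakest thresholded region, at 22.1, was missing from that list. The remaining 2 members only overlapped a stronger thresholded neighbour and had signals of 6.03, at nrde-4, and 3.65, at ift-43.

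Replicate 2 had 12414 regions on its relaxed list and replicate 3 had 29326. Members overlapped a replicate 2 region in 30.4% of cases, against 28.1% of all autosomal regions and 28.0% of the whole pooled list. They overlapped a replicate 3 region in 68.9%, against 66.6% of all autosomal regions and 66.3% of the whole list. Both replicates had a region at 1066 members, or 18.2% (17.2 to 19.2%), against 15.7% of all autosomal regions and of the whole list. These shares were each a few percentage points above the background. The share was 37.7% (34.9 to 40.4%) in head-to-head regions and 11.7% (11.3 to 12.3%) at no protein-coding start. A further 717 members were found in replicate 2 only and 2974 in replicate 3 only. Neither replicate's list covered 1104 members (18.8%), and those had a median pooled signal of 3.86 and a highest signal of 10.7. Of 25250 autosomal regions, 7087 overlapped a replicate 2 region, 16807 a replicate 3 region and 3973 both. There too, replicate 3 only was the most common case. The split of members is thus not read as a trait of their own, given the unequal lengths of the 2 lists.

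Most members found in both replicates were strong ones. Members were split into 4 signal groups of equal size, numbered from 1, the weakest by pooled signal, to 4, the strongest. The share found in both replicates was 5.18%, 7.51%, 15.5% and 44.6% in groups 1 to 4, where the pooled signal is itself made from both replicates. Over the 1066 members found in both, the replicates' signals had a Spearman rho of 0.26 and a Pearson r of 0.30 on the log2 scale, as a description over regions that share their libraries. Their summits lay a median of 108 bp apart.

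The 20 strongest members found in both replicates had pooled signals from 27.8 to 41.2, replicate 2 signals from 5.06 to 21.8 and replicate 3 signals from 14.7 to 29.6. The scale of the 2 replicate lists may differ, so their values are set side by side as given. At rpl-35, which encodes a protein of the large ribosomal subunit, the signal was 10.7 in replicate 2, 28.4 in replicate 3 and 41.2 in the pooled list, with the region at chrIII:7854522-7854837 and its summit at -454 bp. At chmp-7 it was 15.6 in replicate 2, 20 in replicate 3 and 41.2 pooled (chrII:9054659-9054974, summit at -155 bp). At usp-4 it was 9.97 in replicate 2, 29.6 in replicate 3 and 38.6 pooled (chrIV:6756503-6756818, summit at -650 bp). All 3 regions lay between protein-coding genes. The usp-4 summit was 219 bp from H34C03.18, a non-coding RNA gene of a kind that the rule does not name. Such a gene lay within 500 bp of 4 of the 20 regions (those at usp-4, col-63, dhs-8 and C06A6.2). The same held for 7 of the 50 thresholded members and for 401 of all 5861 members (6.84%). A role of that RNA in the signal was not tested.

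The region at ubc-9 was the exception in the balance of the replicates. Its signal was 21.8 in replicate 2, 14.9 in replicate 3 and 35.3 pooled (chrIV:4650656-4650971, summit at -230 bp), and in the other 19 the replicate 3 value was the higher one. At kin-14, on chromosome I, the values were 5.06 in replicate 2, 27.7 in replicate 3 and 34.7 pooled, with the summit at -107 bp. At swsn-3 they were 9.67 in replicate 2, 25.7 in replicate 3 and 34.5 pooled, with the summit at -162 bp.

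The next regions of the 20 lay at genes of several functions. At cdc-48.1 the signal was 10.7 in replicate 2, 23.3 in replicate 3 and 33.6 pooled, and at rps-28, a small ribosomal subunit gene, it was 6.73, 24.2 and 33.3 in the same order. The rps-28 summit also lay in the window of Y41D4B.4, read in the same direction. Likewise the ddp-1 summit also lay in the window of ttc-7, and the rpl-23 summit in that of swp-1. At scc-2 it was 5.97 in replicate 2, 18.2 in replicate 3 and 31.6 pooled. The pooled signal was 31.6 at the cuticle collagen gene col-63, where the summit fell in an untranslated exon and inside the neighbouring gene ceh-8. It was 31.5 at pro-1, a WD-repeat gene with a role in ribosomal RNA processing, 31.0 at ddp-1, a small chaperone of mitochondrial import, and 29.9 at cash-1, a striatin homologue. Short-chain dehydrogenase gene dhs-8 and splicing factor gene plrg-1 followed, each with a pooled signal of 29.0. The last 5 were the large ribosomal subunit genes rpl-3 at 28.4 and rpl-23 at 28.2, and C06A6.2, the synaptonemal complex gene syp-5 and egrh-2, each at 27.8. The egrh-2 region overlapped a further thresholded member, at lep-2 with a pooled signal of 23.9, and both matched the same region of each replicate. On chromosome V the strongest member was that of cash-1.

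Among the thresholded members 45 were found in both replicates and 5 in replicate 3 only. The 45 were not all strong in replicate 2, where their signals ran from 2.64 to 21.8 and their ranks down to 8003 of 12414. In replicate 3 their signals ran from 8.38 to 29.6 and their ranks down to 1745 of 29326. The 5 were at F02E9.5, at met-1, which encodes a histone H3 lysine methyltransferase, at mrck-1, a kinase gene, and a pair of overlapping regions at nrde-4, a gene of nuclear RNA interference. Pooled signals were 30.2 at F02E9.5, 24.9 at met-1, 22.6 at mrck-1, and 24.7 and 6.03 at nrde-4. Replicate 3 signals were 24.5 at F02E9.5, 16.4 at met-1, 21.3 at mrck-1 and 18.0 at nrde-4, and no replicate 2 region overlapped any of them. These regions rest on 1 library as far as the relaxed lists show.

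The rule sets the window but not where in it summits fall. The median summit lay at -316 bp from the annotated 5′ end, with quartiles of -627 and -88 bp, against a median of -402 bp for the bases that were eligible under the rule. In bins of 100 bp, density per eligible megabase was 285 regions at 900 to 1000 bp upstream, 389 at 400 to 500 bp, 507 at 200 to 300 bp, 530 at 100 to 200 bp, 476 in the last 100 bp before the start and 327 at 100 to 200 bp downstream. Summits thus gathered in the last 300 bp before the start, where 32.8% of them lay (31.6 to 34.0%) on 24.6% of eligible bases. Downstream of the start lay 928 members (15.8%), on 17.2% of eligible bases.

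Position and signal went together. The median summit was at -352, -355, -317 and -268 bp in signal groups 1 to 4. The share in the last 300 bp was 28.7% (26.4 to 31.1%), 28.6% (26.3 to 31.0%), 32.4% (30.0 to 34.8%) and 41.6% (39.0 to 44.1%) in the same order. Density at 100 to 200 bp upstream was 109, 108, 131 and 182 regions per eligible megabase in groups 1 to 4, while at 900 to 1000 bp upstream it was 69.1, 80.5, 82.8 and 52.4. Upstream of the start, group 4 was the densest group in the last 400 bp and the least dense beyond 400 bp. Downstream of the start it was the least dense, with 58.3 regions per eligible megabase at 100 to 200 bp, against 91.5, 90.8 and 86.4 in groups 1 to 3.

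**Figure D2:**
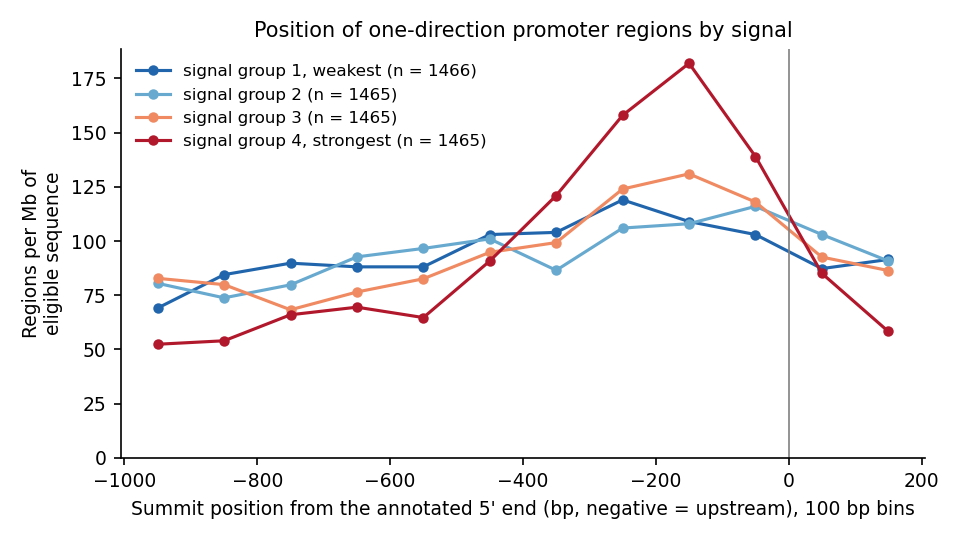
Members per megabase of eligible sequence are plotted in 100 bp bins of summit position from the annotated 5′ end (bp, negative upstream), with 1 line for each of 4 signal groups. Group 4, the strongest, reaches 182 per megabase at 100 to 200 bp upstream and is at 52.4 at 900 to 1000 bp upstream, while group 1, the weakest, stays between 69.1 and 119.

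Thresholded members resembled group 4, which holds most of them, with 13 of 50 (26.0%) at 100 to 200 bp upstream, against 11.5% of all members, and 23 of 50 (46.0%, 31.8 to 60.7%) in the last 300 bp, against 32.8%. Of the 20 strongest found in both replicates, 9 lay at 100 to 200 bp upstream, namely chmp-7, kin-14, swsn-3, cdc-48.1, scc-2, pro-1, ddp-1, plrg-1 and syp-5. A further 5 of the 20 lay more than 600 bp upstream, at usp-4, col-63, dhs-8, C06A6.2 and egrh-2, where 26.9% of all members lay. The first 4 of these 5 are the regions with a non-coding RNA gene of a kind outside the rule within 500 bp.

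Summits lay between protein-coding genes at 57.3% of members (56.0 to 58.6%), against 53.3% of eligible bases. Coding sequence held 18.6% of members (17.6 to 19.6%) against 24.7% of eligible bases, introns 12.7% (11.9 to 13.6%) against 13.6%, and untranslated exons 11.4% (10.6 to 12.2%) against 8.40%. Median signals were 5.19 between genes, 5.31 in untranslated exons, 4.83 in introns and 4.68 in coding sequence. Thresholded members were found 44 times between genes, 4 times in untranslated exons, 2 times in introns and 0 times among 1091 members in coding sequence, a count that allows a share of up to 0.275% (for counts of 0 the limit given is 3 counts of the total, not an exact interval).

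The neighbour upstream on the same strand was the more common setting. Members whose gene followed a neighbour of the same direction numbered 3989 (68.1%), and 36.1% (35.1 to 37.1%) of such genes had a member, against 21.4% (20.5 to 22.3%) of genes whose upstream neighbour was read the other way. The rule removes bases that lie in windows of both strands, so these kinds of gene do not offer the same eligible sequence. For genes 500 bp or less behind a neighbour of the same direction, the arrangement found in operons, the share was 43.1% (41.4 to 44.8%), with a median summit at -218 bp and a median signal of 5.29. The median gap at these members was 175 bp, so some summits lay upstream of the gap rather than in it. At gaps over 500 and up to 2000 bp the share was 34.3% (32.7 to 36.0%) and at larger gaps 29.6% (27.9 to 31.4%), with median signals of 5.07 and 4.83. Thresholded members ran the other way, with 26 of 3989 members (0.652%) behind a neighbour of the same direction and 24 of 1872 (1.28%) behind one read the other way. In the order of gaps above, the 26 were split into 10, 16 and 0, where 0 of 894 allows a share of up to 0.336%.

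Chromosome III held 1147 members, or 19.6% (18.6 to 20.6%), against 16.7% of autosomal length, 15.3% of autosomal protein-coding genes and 15.6% of eligible bases. Per eligible megabase there were 475 members on chromosome III, 427 on I, 395 on IV, 373 on II and 295 on V. At the density of the other 4 autosomes chromosome III would hold 869 members, 278 fewer than it did. The ratio of chromosome III to the other 4 was 1.32, and 1.20 against I, II and IV only, since V had the lowest density. Chromosome III was thus the highest of 5, while the low value of V made up part of the contrast.

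The rise on chromosome III was shared by other kinds of region. Its density over that of the other 4 autosomes was 1.32 for members, 1.29 for head-to-head promoter regions and 1.15 for regions at no protein-coding start, and all classes together put 19.3% of autosomal regions there. It was also seen in each replicate's own list, where the share of one-direction regions on chromosome III over its share of eligible bases was 1.22 in replicate 2 and 1.19 in replicate 3, against 1.26 in the pooled list. The share of members on chromosome III was 17.7% (15.7 to 19.7%), 19.2%, 20% and 21.4% (19.4 to 23.6%) in signal groups 1 to 4, so that the intervals of the weakest and the strongest group met only at their ends. Thresholded members were on chromosome III 11 times of 50 (22.0%, 11.5 to 36.0%), and on IV 15 times, I 10 times, II 8 times and V 6 times. With 50 regions the order of the chromosomes was not resolved.

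**Figure D3:**
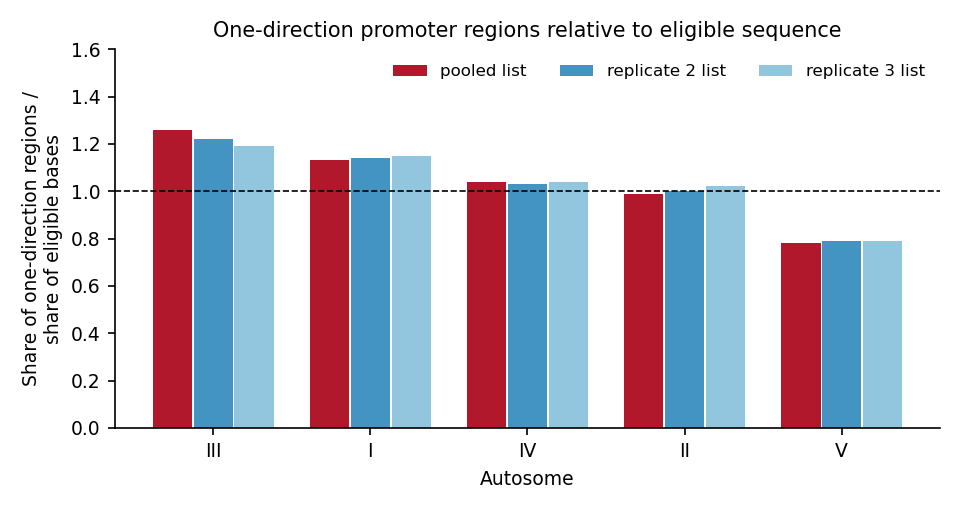
Bars give each autosome's share of one-direction promoter regions divided by its share of eligible bases, for the pooled list and the relaxed lists of replicates 2 and 3, and the dashed line marks 1. Chromosome III is at 1.26, 1.22 and 1.19 and chromosome V at 0.78, 0.79 and 0.79.

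Within chromosome III the density was 506 members per eligible megabase in the central 50% of its length, 488 in the right outer 25% and 373 in the left outer 25%. The central part was the densest segment on each of the 5 autosomes, with 456 on I, 422 on II, 410 on IV and 321 on V. Counted by genes, 972 of 2642 protein-coding genes of chromosome III (36.8%) had a member, against 33.0% on I, 30.4% on II, 26.0% on IV and 24.9% on V. Eligible bases made up 17.5% of the length of chromosome III, and 17.8% without the required distance to short RNA genes. On chromosome IV, which carries 14714 of the autosomes' 15201 piRNA genes, they made up 14.3% with that distance and 18.0% without it. Median signal differed little, at 5.21 on III, 5.16 on II, 5.08 on IV, 5.06 on I and 4.82 on V.

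Of 17241 autosomal protein-coding genes, 5068 (29.4%) had a member, 4206 of them 1, 803 of them 2 and 59 of them 3 or more. Nearly all members (5734, or 97.8%) belonged to 1 gene. Genes were grouped in 29 lists by symbol, covering cellular machinery, gene families, tissues and genes of ASE asymmetry. The share of genes with a member was above 29.4% in 20 lists, with the interval wholly above in 8 and wholly below in 5. Shares also differed with the upstream neighbour (36.1% same strand, 21.4% opposite strand) and with the chromosome (24.9% on V, 36.8% on III). The rule gives genes unlike amounts of eligible sequence, and the shares of the lists were not adjusted for this. The lists covered 3704 genes, and 81.5% of the genes with a member belonged to none of them. Counting members among the 15000 strongest regions only, 17.2% of genes had one.

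Gene expression machinery made up several of the 8 lists with higher shares. Mitochondrial ribosomal protein genes had a member in 37 of 71 (52.1%, 39.9 to 64.1%), with a median of the strongest signal per gene of 6.42 and a median summit at -166 bp. The strongest were mrpl-28 (22.0 pooled, 9.30 in replicate 2 and 10.8 in replicate 3) and mrps-31 (10.3 pooled, 2.49 and 8.57). Translation factors and tRNA synthetases had one in 31 of 73 (42.5%), led by the initiation factor genes eif-2A at 20 and eif-3.B at 19.5. RNA polymerase II and Mediator genes had one in 30 of 68 (44.1%), led by the TFIID subunit gene taf-10 at 16.7 and the polymerase subunit gene rpb-11 at 13.5, neither with a replicate 2 region. Chromatin modifiers and remodellers had one in 35 of 77 (45.5%), led by swsn-3 at 34.5 and met-1 at 24.9. For comparison, the median over all 5068 genes with a member was 5.28.

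The other lists with intervals above 29.4% were of protein folding, division, the germline and proton pumping. Chaperonin and heat shock genes had a member in 28 of 61 (45.9%), led by the constitutive Hsp70 gene hsp-1 at 22.2 and dnj-4 at 18.1. Cell cycle and DNA replication genes had one in 32 of 72 (44.4%), led by cdc-48.1 at 33.6 and by pcn-1, the replication clamp PCNA, at 23.1. Germline and oocyte genes had one in 36 of 66 (54.5%, 41.8 to 66.9%), led by syp-5 at 27.8 and egg-3, a gene of the egg-to-embryo transition, at 14.9. Vacuolar ATPase genes had one in 11 of 18 (61.1%, 35.7 to 82.7%), led by vha-13 at 15.9 and vha-2 at 13.3.

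Cytosolic ribosomal protein genes differed from the rest in signal more than in share. They had a member in 30 of 76 (39.5%, 28.4 to 51.4%), an interval that includes 29.4%, but the median of the strongest signal was 11.0, the highest of the 29 lists, and the lowest was 5.16. Thresholded members lay at 8 of these genes (10.5%), against 0.302% of all autosomal genes, namely rpl-35, rps-28, rpl-3, rpl-23, rpl-38, rpl-6, rps-11 and rps-17. The median position of the summits in this list was -328 bp. The 8 thresholded regions lay in sequence whose 32-mers were all unique in the genome.

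Shares wholly below 29.4% were found for 5 families. Chemosensory receptor genes, a very large family of seven-transmembrane receptors, had a member in 182 of 1276 (14.3%, 12.4 to 16.3%), with a median signal of 4.27, a highest signal of 10.6 at srg-45 and 0 of 1276 genes thresholded, which allows a share of up to 0.235%. Histone genes had one in 12 of 76 (15.8%, 8.43 to 26.0%), led by the linker histone gene hil-5 at 12.5. F-box genes had one in 58 of 305 (19.0%), led by fbxa-106 at 16.3, C-type lectin genes in 45 of 236 (19.1%), led by clec-40 at 7.85, and P450 and phase II enzyme genes in 38 of 171 (22.2%), led by gst-20 at 9.47. The strongest members of these families were all below the weakest thresholded signal of 22.1.

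Intervals included 29.4% in the other 16 lists, among them oxidative phosphorylation (21 of 63, 33.3%, led by cox-5B at 23.4 and cox-5A at 21.8), proteasome (13 of 33, 39.4%, led by pbs-3 at 16.5) and ubiquitin conjugation (19 of 50, 38.0%). The ubiquitin conjugation list was led by ubc-9 at 35.3, whose product conjugates SUMO, and next came ubq-1 at 17.8. Membrane traffic genes had a member in 36 of 99 (36.4%), led by the translocon gene sec-61.G at 22.1, splicing genes in 24 of 66 (36.4%), led by rsp-6 at 19.8, and nuclear pore and transport genes in 13 of 42 (31.0%), led by npp-19 at 21.1. Nuclear hormone receptor genes had one in 82 of 247 (33.2%), led by nhr-136 at 18.1, homeobox genes in 19 of 74 (25.7%), led by ceh-62 at 7.54, and cuticle collagens in 33 of 145 (22.8%), led by col-63 at 31.6. Among tissue lists, muscle genes had one in 16 of 35 (45.7%), led by the actin gene act-2 at 19.0, pan-neuronal genes in 11 of 25 (44.0%), led by unc-11 at 13.8, intestinal genes in 7 of 18 (38.9%), led by lys-8 at 11.0, neuropeptide genes in 35 of 111 (31.5%), led by flp-24 at 14.0, and major sperm protein genes in 4 of 31 (12.9%), led by msp-31 at 4.50. The intervals of these 5 tissue and cell type lists all included 29.4%, which also depends on the number of genes in a list. The muscle (28.8 to 63.4%), pan-neuronal (24.4 to 65.1%) and intestinal (17.3 to 64.3%) intervals overlapped that of the germline list (41.8 to 66.9%). A difference between these lists and the germline list was thus not shown. The neuropeptide and major sperm protein intervals lay below that of the germline list.

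Genes listed for ASE asymmetry, the process in which LSY-27 is known to act, had a member in 3 of 24 (12.5%, 2.66 to 32.4%). The list was not of regulators only. The 3 genes were unc-37, the Groucho co-repressor gene, at 6.69 with no region in either replicate, the guanylyl cyclase gene gcy-20 at 3.95 with 4.08 in replicate 3, and lsy-13 at 3.03 with no region in either replicate. No member lay at lsy-27 itself. All 3 signals were low against the 22.1 of the weakest thresholded region.

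**Figure D4:**
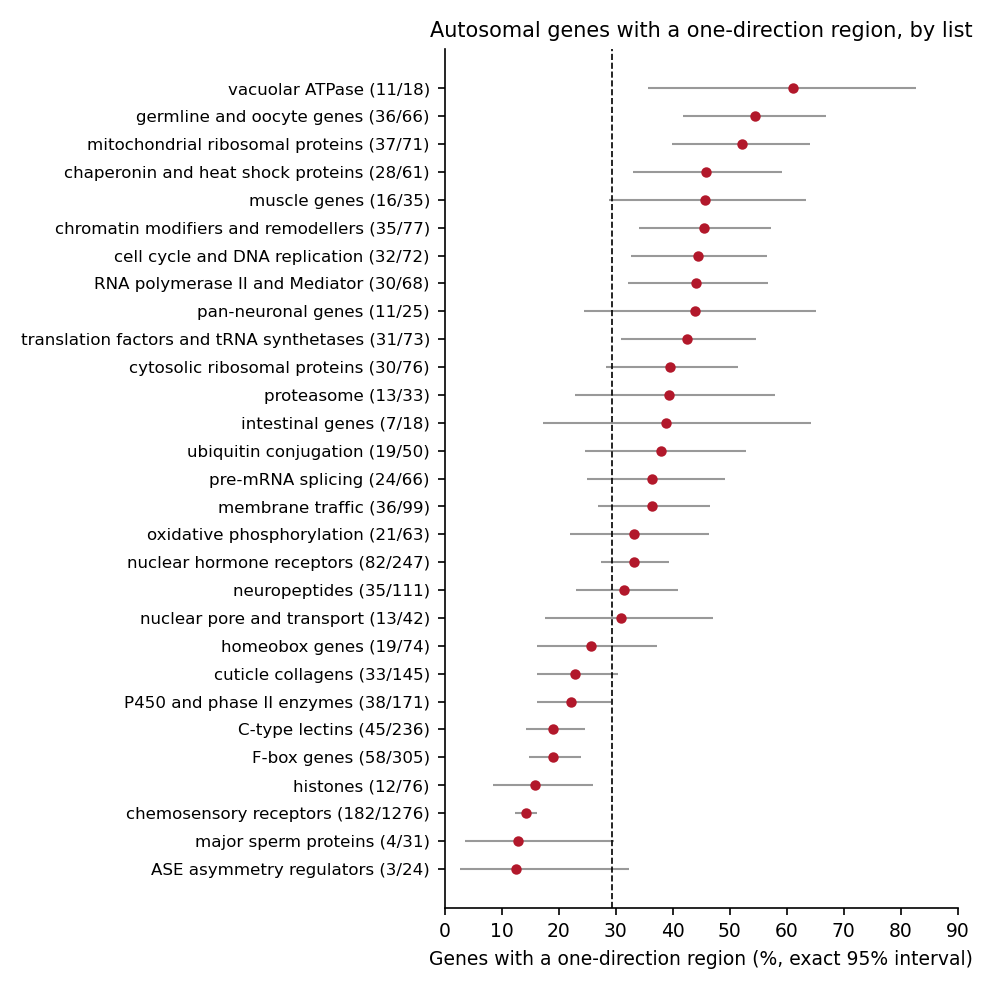
Points give the percent of genes of each list with a one-direction promoter region, with the exact 95% interval as bars, and labels give the number with a region and the number of genes. The dashed line is the 29.4% of all autosomal protein-coding genes, with vacuolar ATPase genes at 61.1% far above it and chemosensory receptor genes at 14.3% below it.

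Base composition changed at the summit with signal. Mean G+C content within 50 bp of the summit was 36.4%, against 34.9% for windows centred 300 bp upstream and 35.7% for windows 300 bp downstream. At the summit it was 35.2%, 35.5%, 36.1% and 38.9% in signal groups 1 to 4, and 45.4% in the thresholded members, whose flanks had 33.0% and 36.0%. The standard deviation over members was 8.64 percentage points, so single members of the groups overlap widely. CG dinucleotides numbered 3.24, 3.31, 3.57 and 4.63 per summit window in groups 1 to 4 and 7.64 in the thresholded members, whose flanks had 3.14 upstream and 4.08 downstream. The weak members were thus close to their flanks and to other promoters in composition, and the strong ones were not.

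**Figure D5:**
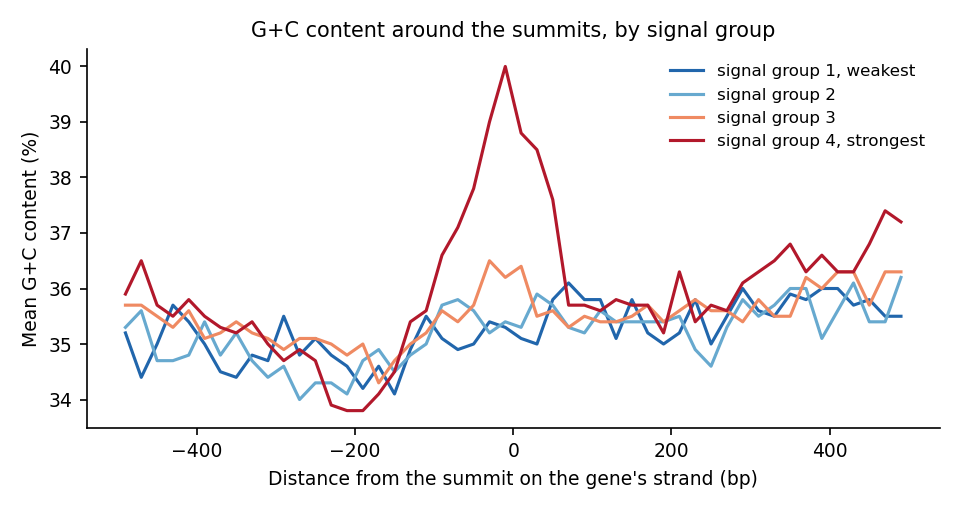
Mean G+C content (percent) is plotted against distance from the summit on the gene's strand (bp), with 1 line for each of 4 signal groups, and the vertical axis starts above 0. Group 4, the strongest, peaks at the summit, where its windows of 50 bp on each side average 38.9%, and group 1, at 35.2%, has no peak.

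Motifs were counted in the same windows, on both strands except TTTNCAG, the 3′ splice site type, which was read on the gene strand. GAGAGA was found in 8.91% of members (8.19 to 9.66%), 6.11% of flanks and 5.79% of autosomal promoters, and in 12.2% of group 4 and 6.28% of group 1. GCGCGC was found in 2.06% of members, 0.853% of flanks and 0.969% of promoters, with 0.750%, 0.887%, 1.50% and 5.12% in groups 1 to 4 and 10 of 50 thresholded members (20%, 10 to 33.7%). CCCGCC was in 2.87% of members and 1.82% of promoters, and GCGGGAA in 1.84% and 1.23%. GCGGGAA can overlap the reverse complement of CCCGCC by 5 letters, so a window can count for both.

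The remaining motifs differed less from their surroundings. The TATA-box letters TATAAA were in 11.9% of members, 11.8% of flanks and 12.6% of promoters, and in 9.42% of group 4. The run TTTTTTT was in 22.1% of members and 23.2% of promoters, the E-box CACGTG in 1.96% and 1.48%, and TTTNCAG in 11.3% and 9.70%. TTTNCAG was more frequent 300 bp downstream of the summit (13.9%) than upstream (10.7%), and in thresholded members it was at 1 of 50 summits. Among the printed sequences only swsn-3 holds CACGTG, at 2 places, and only ubc-9 holds GCGCGC.

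All 6-mers were also counted without a list, each with its reverse complement. In group 4 those with the largest gain over the flanks were GAGAGA (12.2% against 5.80%), ACGCGC (8.12% against 1.84%), GACGCA (8.12% against 2.46%), ACGCAG (7.65% against 2.12%) and CAAACA (12.4% against 6.89%). AAAATT (37.7% against 42.5%) and TCAAAA (21.2% against 26.6%) were less frequent than in the flanks. In the 50 thresholded members, ranked after the values were seen, the leading 6-mers were CGCGCC (24.0%, 13.1 to 38.2%, against 1.00% in flanks) and GGCGCA (24.0% against 2.00%), with AAACAC (26.0% against 7%) also among the first 5. These overlap each other by up to 5 letters, so they can mark the same bases, and a match is not evidence of a site for LSY-27.

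Values at the edges of the rule are given as a description. The 71 members within 20 bp of the upstream edge had a median signal of 4.32, and the 69 regions within 20 bp beyond it 4.51. The 92 members within 20 bp of the downstream edge had a median of 4.25, and the 78 regions beyond it 5.00. The 8 members just over 500 bp from a short RNA gene had a median of 6.50, and the 9 regions just within that distance 4.89. Of the strongest members, cdc-48.1 lay closest to this edge, at 524 bp from the snoRNA gene C06A1.9. Of the members, 283 (4.83%) had under 90% unique 32-mers, against 6.77% of the whole list. Only called regions were counted, so sequence where reads could not be placed is not covered.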

How the data were processed

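Regions came from the narrowPeak lists of 2 biological replicates, called by the authors for each replicate, for the replicates pooled, and as a thresholded list (irreproducible discovery rate), per the text deposited beside the lists. Caller and aligner are not given in the sources used here. The signal values (column 7) are the deposited score of each region, and summits come from column 10. The ce10 lists were not analysed here. Gene starts, short RNA genes and sequence were from RefSeq WBcel235. Bases were eligible when a summit there would meet the rule.

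Computation used Python 3.11.15, numpy 2.4.6, pandas 2.3.3 and scipy 1.17.1. Overlap meant at least 1 bp. The rule was tested on 2000 planted summits, some of them placed outside the window, and 100% of those inside it were recovered. No test over regions was made. Members and gene lists were chosen with earlier results of these data known, and the chemosensory, collagen and transcription lists were corrected after a first run, because symbols of unrelated genes had matched. Named were the 20 strongest members found in both replicates, the strongest on each autosome, thresholded members missing from a replicate, and up to 2 genes per list with the strongest signal; ift-43, lsy-13 and lsy-27 were added after their values were seen. Alternatives changed the window, the distance to short RNA genes, the starts, the summit and the list used.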

Additional observations from a re-analysis of the deposited data

How the results depend on the processing

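The number of members, 5861, was 3199 with the 15000 strongest regions of the pooled list and 1066 among regions overlapping both replicates; the replicates' own lists gave 2440 without replicate 3 and 5506 without replicate 2. The median signal, 5.05, was 6.78 with the 15000 strongest and 8.24 in regions of both replicates, and 3.09 to 3.66 with 1 replicate left out, on lists whose scales may differ. The share on the thresholded list, 0.853%, was 1.13% with a window of 500 bp upstream and 0.573% with 1500 bp upstream and 500 bp downstream. It was 1.31% with no distance to short RNA genes, 1.53% with the 15000 strongest and 4.22% in regions of both replicates. One-direction regions of the replicates' own lists gave 0.890% in replicate 3 and 1.68% in replicate 2. The thresholded list was made from both replicates, so neither value is free of the replicate left out. The median position, -316 bp, was -158 and -350 bp with the narrower and wider window, as the window itself sets, -303 bp with the starts of all transcripts, -286 bp with the 15000 strongest, -278 bp in regions of both replicates, and -324 to -314 bp with 1 replicate left out. The chromosome III share, 19.6%, was 20.7% with the 15000 strongest, 22.0% among members on the thresholded list, and 18.5% to 19.1% with 1 replicate left out. Under the main rule 15.6% of eligible bases lay on chromosome III. With the wider window the share was 18.5%, and eligible bases were not counted for that window. The share found in both replicates, 18.2%, was 8.79% with summits within 100 bp and 9.76% with the strongest 10000 regions of each replicate. The number of gene lists above all genes, 20, was 18 with the 15000 strongest and in regions of both replicates. Of 8 motifs, 7 were more frequent at summits than in flanks, and also 7 with the 15000 strongest. The count includes a near tie, TATAAA at 11.9% against 11.8%. A window of 25 bp on each side also gave 7, but not the same ones. There TATAAA was lower at summits (5.72% against 6.06%) and TTTNCAG slightly higher (5.84% against 5.71%). The causes of these moves beyond fewer regions or another window were not tested.

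No paired analysis was possible because there was a single group. Read depth is unknown, so no limit from read counts is given. The relaxed lists were made to hold background as well as regions, and these files do not resolve a single weak member from it.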
